A study of Mus musculus with 4 samples.

Results

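Voltage-gated calcium channels open when the cell membrane depolarises and let calcium in. The pore of each channel is formed by 1 large alpha1 protein, and the gene that encodes it sets the channel's class. L-type channels open at strong depolarisation and are the target of dihydropyridine drugs. P/Q-, N- and R-type channels serve mainly transmitter release in neurons, and T-type channels open at weak depolarisation. All 10 mouse pore subunit genes were measured, among 22180 genes in all: Cacna1s, Cacna1c, Cacna1d and Cacna1f (L), Cacna1a (P/Q), Cacna1b (N), Cacna1e (R), and Cacna1g, Cacna1h and Cacna1i (T). They were chosen by gene symbol, and each had 1 probe set with that symbol alone.

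The cells were N9, an immortalised line of mouse microglia, the resident immune cells of the brain, grown in DMEM with serum. Total RNA was measured on 4 Affymetrix arrays. Vehicle-treated cells gave 2 arrays, cells given 10 µM nimodipine gave 1, and cells given 20 µM nimodipine gave 1. Nimodipine is a dihydropyridine blocker of L-type channels, and the series title asks what such drugs do to microglia. The labels give no exposure time, do not match a vehicle array to a dose, and name no separate cultures behind the vehicle arrays. The p-values therefore rest partly on how far arrays of a group lay apart. In vehicle that distance may be technical, and in nimodipine it includes the difference between doses. The test used below, limma, also draws each gene's variance toward that of all genes. That shared part carried 4.02 degrees of freedom, beside 2 from the gene's own arrays. Its SEs and intervals are therefore not a gene's own spread alone. In such bulk RNA, fewer expressing cells and less RNA per cell cannot be told apart.

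Values are deposited log2 expression values, and the median of all of them was 5.04. Against the 2 background lines described below, 12 of 12 microglia markers lay above that of olfactory receptor genes and 11 of 12 above that of genes of other tissues, with vehicle means from 5.83 for Aif1 to 13.53 for the lysosomal protein gene Cd68. Of 8 neuron markers, 4 lay above the first line and 0 above the second, with vehicle means from 4.26 to 5.76. The number of arrays limits the precision. By limma, 0 of 22180 genes passed an adjusted p of 0.05 for nimodipine against vehicle, and 1191 had an unadjusted p under 0.05. Taken singly, the 10 µM array lay 1 or more from the vehicle mean (log2) in 348 genes and the 20 µM array in 19. Each of these counts rests on 1 dose array.

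Of the 10 pore subunit genes, only Cacna1a lay above the 95th percentile of each of 4 background gene sets, and no L-type gene did. No detection calls were used here, so background was described by genes known for their use in other tissues. The 95th percentile of the vehicle means of 1105 olfactory receptor genes was 5.06. The same percentile of 45 genes of other tissues, such as albumin and milk proteins, was 5.94. Above the first line lay 6 of 10 pore subunit genes, beside 56.8% of all genes. Above the second lay 1 of 10, beside 44.1% of all genes. The same genes were above each line on all 4 arrays as in the vehicle mean. Keratin-associated protein genes and beta-defensin genes, background sets added after seeing the data, put the line at 6.63 and 5.90 and also left Cacna1a alone above it. Probe sets differ in how brightly they bind, so a position against these lines describes a probe set and does not rank the channels by amount of RNA.

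**Figure D1:**
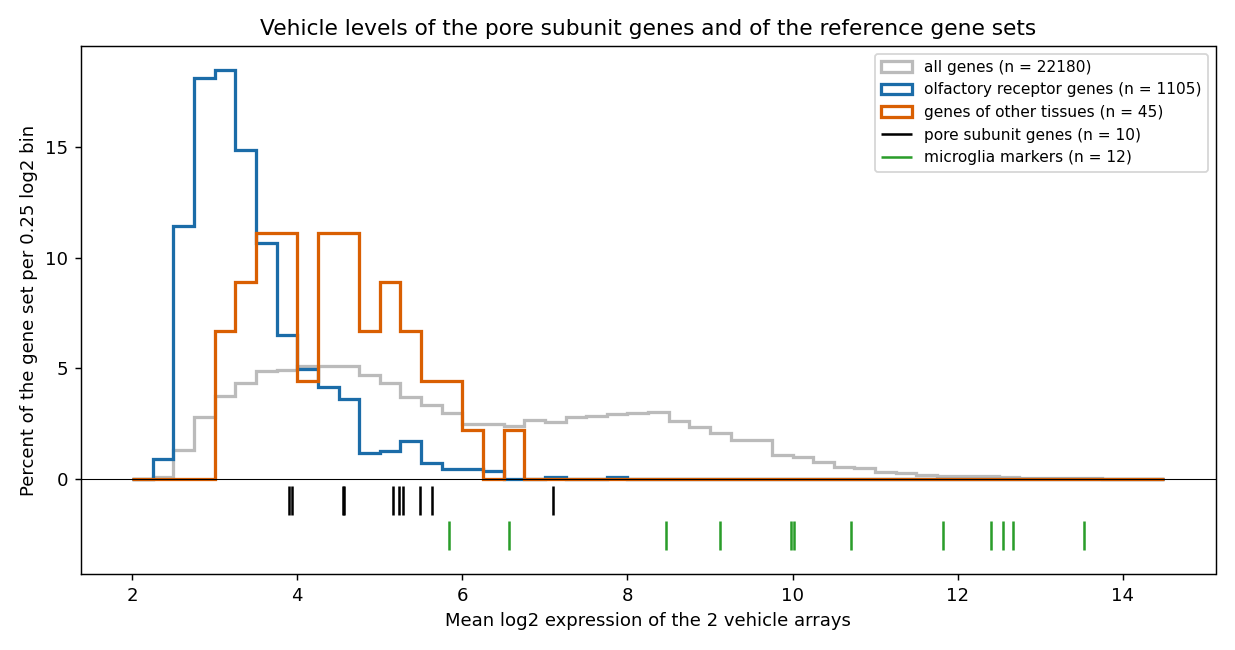
Histograms of the vehicle mean (log2, x axis) as a percentage of each gene set (y axis) for all genes, 1105 olfactory receptor genes and 45 genes of other tissues, with ticks below for the 10 pore subunit genes and 12 microglia markers. The tick at 7.10 is Cacna1a, and the other 9 pore subunit genes lie between 3.90 and 5.63.

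Cacna1a encodes Cav2.1, the P/Q-type pore best known from Purkinje cells and presynaptic terminals. Vehicle gave 7.15 and 7.06, the lower dose 7.24 and the higher dose 7.11. All 4 values lay close together, and the groups overlapped. Its vehicle mean of 7.10 ± 0.068 (SD, n = 2) exceeded 99.8% of olfactory receptor genes, all 45 genes of other tissues and 67.7% of all genes. It lay below the highest olfactory receptor gene (7.85), keratin-associated protein gene (7.17) and beta-defensin gene (7.26). Nimodipine minus vehicle was 0.071 on the log2 scale (95% interval -0.25 to 0.39, limma adjusted p = 0.931).

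Among the L-type genes, Cacna1d had the largest difference of any pore subunit gene. It encodes Cav1.3, an L-type pore that opens at more negative voltages than Cav1.2 and serves pacemaking and hearing. Vehicle gave 5.80 and 5.47, the lower dose 5.09 and the higher dose 5.25. Both nimodipine values lay below both vehicle values, and all 4 lay between the background lines. The difference from the vehicle mean was -0.54 at 10 µM and -0.38 at 20 µM, while the vehicle arrays themselves differed by 0.32. With both doses taken as 1 group the difference was -0.46 ± 0.16 (limma SE, 2 arrays per group; 95% interval -0.85 to -0.070), with an unadjusted limma p of 0.0280 and an adjusted p of 0.792, so Cacna1d did not pass the test. Without vehicle 1 the difference was -0.30, and without vehicle 2 it was -0.62. With dose as a number the limma slope was -0.022 per µM, and its 95% interval included 0 (-0.053 to 0.0082). In the fit of 3 groups a lone dose array has no spread of its own. The spread there came from the vehicle pair, drawn toward that of all genes. For Cacna1d that fit gave the same differences, -0.54 at 10 µM and -0.38 at 20 µM.

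The promoters of Cacna1d are shown because it had the largest difference and because RefSeq lists 2 starts for it (build GRCm38.p6, minus strand), which the single probe set value does not tell apart. The starts differ in CpG content. The window of the upstream start holds 4 CpG dinucleotides in its 300 bases and that of the downstream start 63, more than 99.97% of all 32851 promoter windows. Each runs from 250 bases before to 50 bases after the start, 5′ to 3′ on the gene's strand, with CpG dinucleotides in capitals.
Cacna1d start 1, chr14:30491107-30491406: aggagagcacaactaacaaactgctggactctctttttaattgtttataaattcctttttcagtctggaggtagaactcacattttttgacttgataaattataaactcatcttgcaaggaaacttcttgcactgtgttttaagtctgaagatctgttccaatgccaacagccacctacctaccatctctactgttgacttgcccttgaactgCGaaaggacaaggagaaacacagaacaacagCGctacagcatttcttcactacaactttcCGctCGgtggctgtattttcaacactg
Cacna1d start 2, chr14:30353437-30353736: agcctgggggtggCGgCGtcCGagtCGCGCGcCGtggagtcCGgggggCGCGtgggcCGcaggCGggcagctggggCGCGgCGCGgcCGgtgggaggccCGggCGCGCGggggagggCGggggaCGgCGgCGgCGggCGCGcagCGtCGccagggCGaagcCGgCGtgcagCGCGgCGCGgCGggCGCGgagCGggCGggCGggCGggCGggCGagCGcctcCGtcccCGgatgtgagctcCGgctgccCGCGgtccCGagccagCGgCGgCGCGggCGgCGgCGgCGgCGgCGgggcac

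A TATA box (TATAAA, either strand) occurred in the window of the first Cacna1d start and in 13.6% of all windows, and a GC box (GGGCGG, either strand) in that of the second and in 35.7% of all windows. A match or its absence describes only the letters of these windows. The promoter table held 7 of the 10 genes, with 10 windows (Cacna1a, Cacna1g and Cacna1h had none). The GC box occurred in 5 of the 10 windows, in Cacna1b, Cacna1c, Cacna1d, Cacna1f and Cacna1s. The letters TGACGTCA, the cyclic AMP response element, and TTCAGCACC, the left part of the RE1 element bound by the neuronal gene repressor REST, occurred in 0 of the 10 and in 1.79% and 0.371% of all windows.

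Cacna1c encodes Cav1.2, the L-type pore of heart, smooth muscle and most neurons and the usual dihydropyridine target there. Vehicle gave 4.67 and 4.44, the lower dose 4.48 and the higher dose 4.59. The groups overlapped, and every value lay below both background lines. Its vehicle mean exceeded 91.2% of olfactory receptor genes and 55.6% of genes of other tissues. The difference was -0.022 (95% interval -0.37 to 0.33, limma adjusted p = 0.987), and 0.095 without vehicle 1.

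The other L-type genes lay just above the olfactory receptor line. Cacna1f, the retinal Cav1.4 pore, stood at 5.26 and 5.30 in vehicle, 5.24 at the lower dose and 5.19 at the higher. Cacna1s, the Cav1.1 pore that serves as voltage sensor in skeletal muscle, stood at 5.18 and 5.14, then 5.20 and 5.22. In neither gene did the groups overlap, with gaps of 0.024 and 0.017 between them. The differences were -0.064 ± 0.12 for Cacna1f and 0.046 ± 0.12 for Cacna1s (limma SE, adjusted p = 0.933 and 0.959), and that of Cacna1s was -0.0055 with cyclic loess, another way of making the arrays comparable. In vehicle, Cacna1f lay above 82.2% of genes of other tissues.

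**Figure D2:**
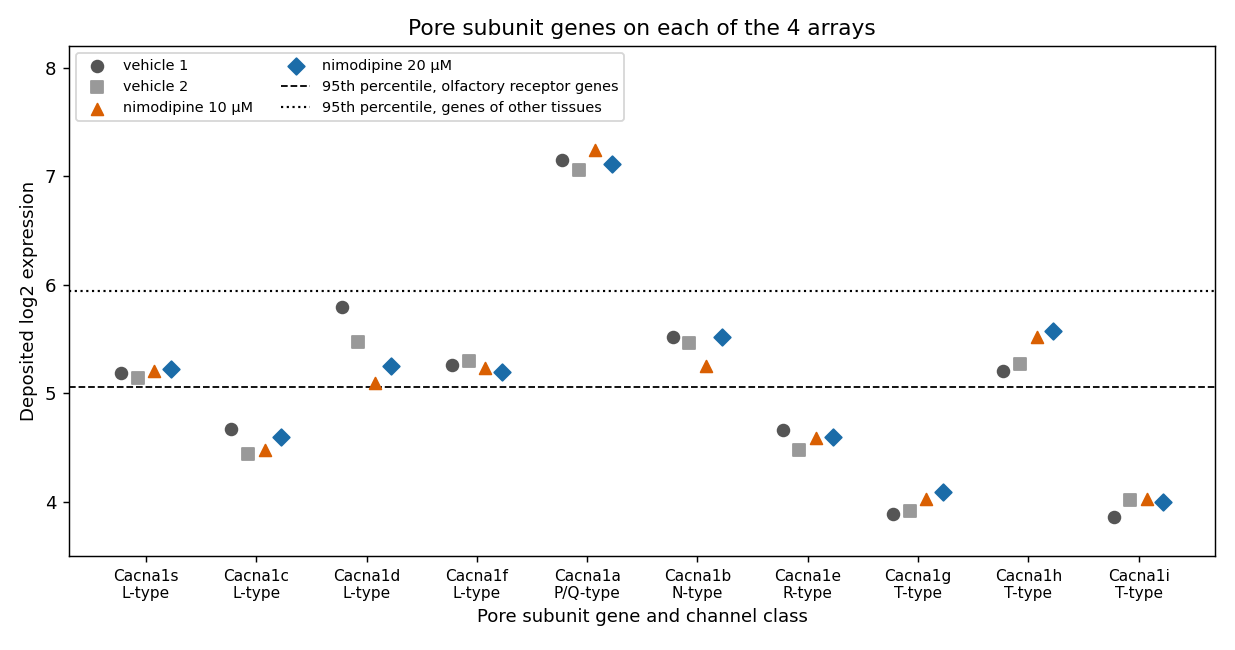
Deposited log2 expression (y axis) of each pore subunit gene (x axis, with its channel class) on the 4 arrays; dashed and dotted lines mark the 95th percentiles of olfactory receptor genes (5.06) and of genes of other tissues (5.94) in vehicle. Cacna1a lies above both lines on all 4 arrays, and Cacna1c, Cacna1e, Cacna1g and Cacna1i lie below both.

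The N-type gene lay between the background lines and the R-type gene below both. Cacna1b encodes Cav2.2, the N-type pore of presynaptic terminals. It stood at 5.52 and 5.46 in vehicle, 5.25 at 10 µM and 5.52 at 20 µM, between the lines on every array. The 10 µM value lay below both vehicle values, at -0.23 from their mean (fit of 3 groups, limma adjusted p = 0.486). With both doses as 1 group the difference was -0.10 (95% interval -0.46 to 0.26, adjusted p = 0.898 by limma), and without the 10 µM array it was 0.032. Cacna1e encodes Cav2.3, the R-type pore. It stood at 4.66 and 4.47 in vehicle, 4.59 at 10 µM and 4.60 at 20 µM, with both nimodipine values between the vehicle values and all 4 below both lines. Its difference was 0.030 (95% interval -0.30 to 0.36, limma adjusted p = 0.980), and -0.027 with cyclic loess.

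The 3 T-type genes had higher values at both doses than the vehicle mean, and none passed the test. Of all genes, 52.4% were higher than the vehicle mean at 10 µM and 49.3% at 20 µM, and of the 45 genes of other tissues 30 and 34 were. Cacna1h encodes Cav3.2, a T-type pore known from sensory neurons. It stood at 5.20 and 5.27 in vehicle, 5.52 at 10 µM and 5.58 at 20 µM, so that both nimodipine values lay above both vehicle values. The difference was 0.31 ± 0.13 (limma SE; 95% interval 0.0053 to 0.62), with an unadjusted limma p of 0.0472 and an adjusted p of 0.792. The interval included 0 with equal array medians (-0.030 to 0.59), with cyclic loess (-0.038 to 0.58) and with dim genes left out (-0.0038 to 0.63). It did so too when any 1 array was left out. Cacna1h lay between the background lines on all 4 arrays.

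Cacna1g encodes Cav3.1, a T-type pore of thalamic neurons. It stood at 3.89 and 3.91 in vehicle, 4.03 at 10 µM and 4.09 at 20 µM, without overlap. Cacna1i encodes Cav3.3, and its values of 3.86 and 4.01 in vehicle and 4.02 and 4.00 at the doses overlapped. Their differences were 0.16 (limma adjusted p = 0.824) and 0.072 (adjusted p = 0.929). In vehicle these genes exceeded 78.6% and 79.5% of olfactory receptor genes but only 31.1% and 33.3% of genes of other tissues. Without vehicle 1 the difference of Cacna1i was -0.0025.

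As a family, the pore subunit genes showed no difference from vehicle that passed the test. limma, with nimodipine as 1 group, called 0 of 10 (0% of all genes), and 2 of 10, Cacna1d and Cacna1h, had an unadjusted p under 0.05, beside 5.37% of all genes. That number was 1, Cacna1d, with equal array medians, with cyclic loess and with dim genes left out, and 0 with dose as a number. With 1 array left out it was 0 (without vehicle 1 or the 10 µM array) or 1 (Cacna1d, without vehicle 2 or the 20 µM array). The groups did not overlap for 5 of 10, 3 higher and 2 lower with nimodipine, beside 37.4% of all genes (19.2% higher, 18.2% lower). The median difference over the 10 genes was 0.038 with nimodipine, beside 0.0069 over all genes. At 10 µM, 0 of 10 lay 1 or more from the vehicle mean (log2), beside 1.57% of all genes, and at 20 µM 0 of 10, beside 0.0857%. By 0.5 or more, Cacna1d was the single member at 10 µM, beside 10.1% of all genes, and there was none at 20 µM, beside 2.74%. The 2 vehicle arrays differed from each other by 0.5 or more in 0 of 10, beside 794 of the 22180 genes. Each dose had 1 array, so these counts have no replicate check, and both doses share the vehicle arrays. Each of the 10 intervals (95%) for nimodipine minus vehicle lay within 1 of 0 on the log2 scale, from -0.85 at the lowest bound, in Cacna1d, to 0.62 at the highest, in Cacna1h. For genes near background, array signal understates a change in RNA, so these intervals bound the signal and not the RNA.

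**Figure D3:**
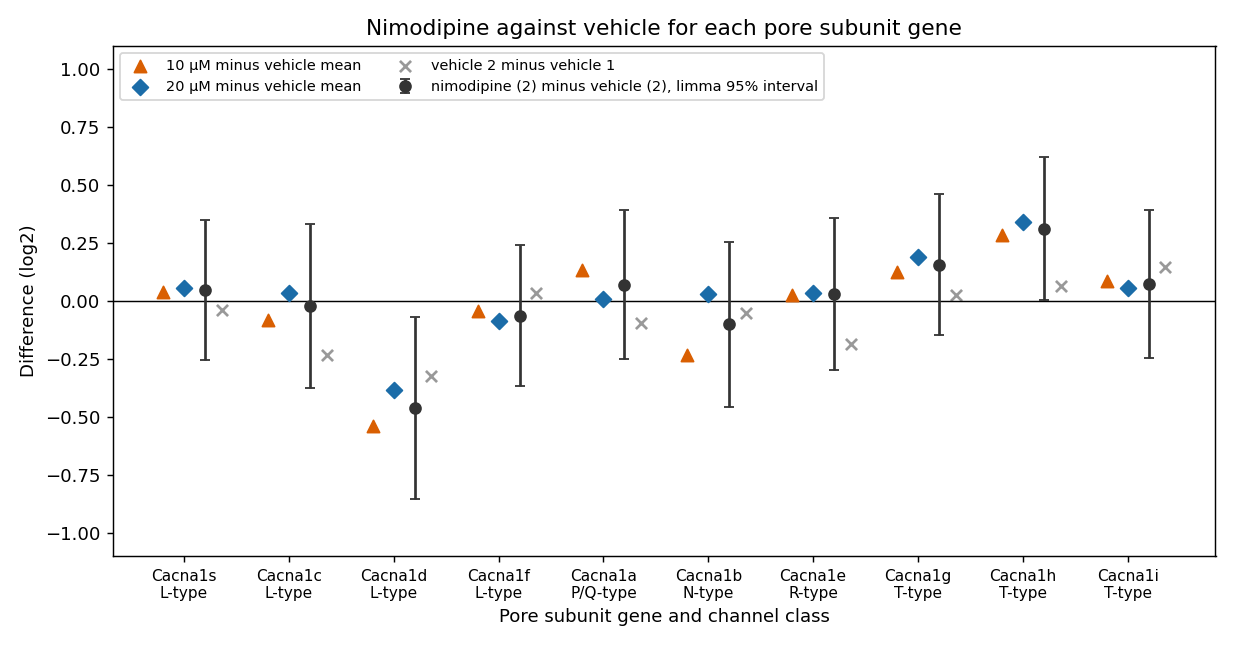
Differences on the log2 scale (y axis) for each pore subunit gene (x axis): each dose minus the vehicle mean, nimodipine minus vehicle with its limma 95% interval (2 arrays per group), and vehicle 2 minus vehicle 1. The intervals of Cacna1d (-0.85 to -0.070) and Cacna1h (0.0053 to 0.62) leave out 0 before adjustment, that of Cacna1h only narrowly, and the other 8 include it.

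Each dose had 1 array, so a difference between the doses has no replicate check. Among the pore subunit genes it was largest in Cacna1b, at 0.27 for 20 µM minus 10 µM. The fit of 3 groups, with contrasts for members added after seeing the data, assumes that a dose array varies like the vehicle pair. In it limma called 0 of 10 for 20 µM minus 10 µM (0.316% of all genes) and 0 of 10 for 10 µM minus vehicle (1.59% of all genes), which does not show that the doses act alike.

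The genes whose profile over the 4 arrays came nearest to that of Cacna1d were Zcchc8, Parp9 and Thap2, with mean absolute differences between centred profiles of 0.014, 0.025 and 0.025 among 12763 genes. Zcchc8 stood at 9.31 and 9.01 in vehicle, 8.60 at 10 µM and 8.75 at 20 µM. With 4 arrays, 13 genes came within 0.05. Cacna1d was the only member above the olfactory receptor line on every array with a range of 0.5 or more, as the naming rule required.

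Pore subunits work with auxiliary subunits that carry them to the membrane and tune their opening. Of the 4 alpha2delta genes, 0 lay above either line. Of the 4 beta genes, which bind the pore from inside, 3 were measured, and Cacnb1 was the only one above either line. It stood at 7.64 and 7.51 in vehicle, 7.26 at 10 µM and 7.28 at 20 µM. Both nimodipine values lay below both vehicle values, with a difference of -0.30 ± 0.13 (limma SE, adjusted p = 0.792). Cacna2d3, an alpha2delta gene, differed by 0.40 ± 0.14 (adjusted p = 0.792) at levels between 4.12 and 4.66. Cacna2d1 and Cacnb2 differed by -0.14 ± 0.13 and 0.14 ± 0.24 (limma SE, adjusted p = 0.842 and 0.922).

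The gamma genes are known mostly as partners of glutamate receptors. Of the 8, 7 lay above the olfactory receptor line and 2 above the line of other tissues, Cacng4 at 6.47 and Cacng8 at 6.21 in vehicle. Cacng7 differed by 0.16 and Cacng5 by 0.13, the largest in this list (limma adjusted p = 0.821 and 0.854).

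Among 7 measured of 11 modulators, Stac2 had the highest values. It encodes an adaptor that binds L-type pores and slows their inactivation. It stood at 8.98 and 8.88 in vehicle, 8.65 at 10 µM and 8.64 at 20 µM, above both lines on every array and lower at both doses than on either vehicle array. The difference was -0.28 ± 0.13 (limma SE, adjusted p = 0.792). Gem, a small GTPase that inhibits these channels, was the other modulator above both lines, with values between 6.38 and 6.48. Rem2 and Rrad, related GTPases, had vehicle means of 5.22 and 5.14, between the lines. Stac3, the adaptor of the muscle channel, differed by 0.29 ± 0.14 (adjusted p = 0.792).

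**Figure D4:**
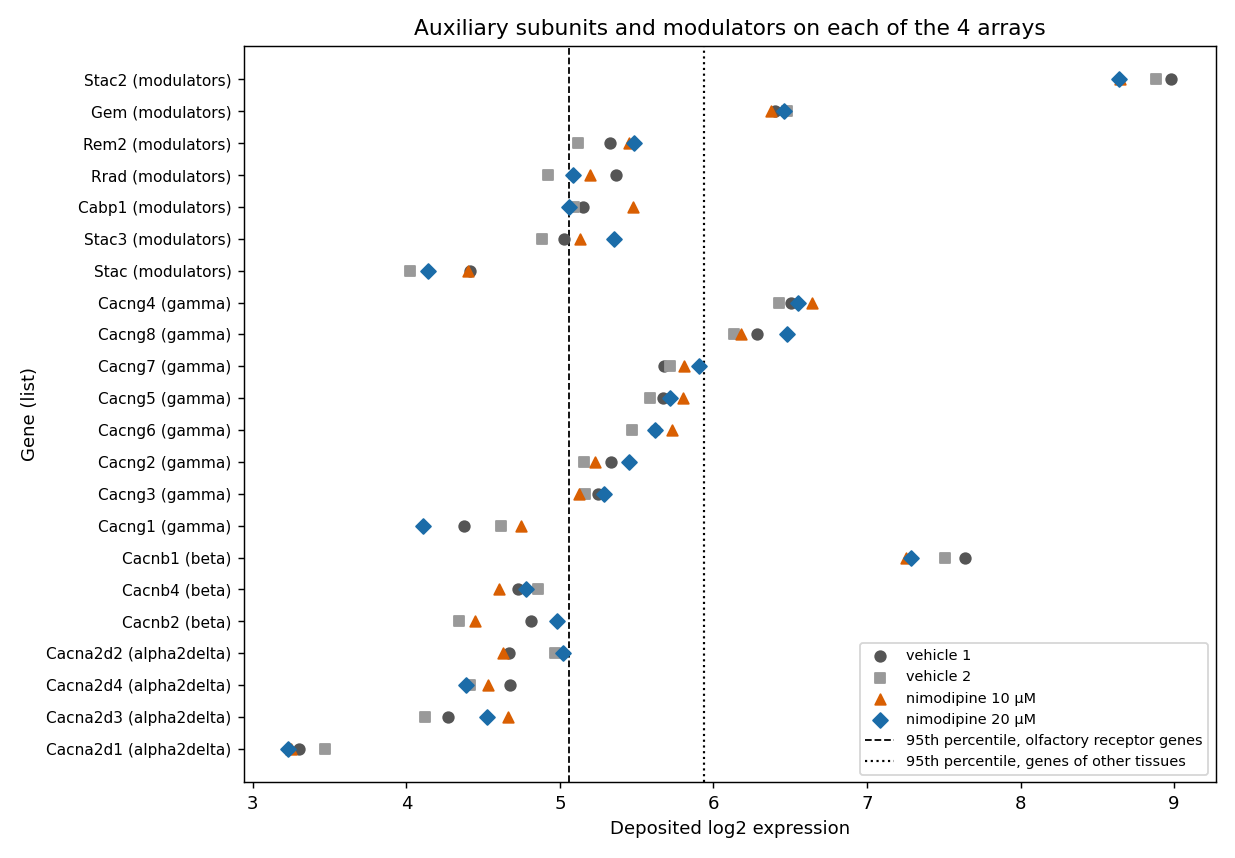
Deposited log2 expression (x axis) of the measured alpha2delta, beta and gamma subunit genes and modulators (y axis) on the 4 arrays, with the same background lines. Stac2, Cacnb1, Cacng4, Gem and Cacng8 have all 4 values above both lines.

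Related cation channel pores served as a further comparison. Of 8 measured pore genes of the voltage-gated sodium channel family, Scn7a among them, 0 lay above either line, with vehicle means from 3.48 to 4.59. The highest, Scn10a, differed by -0.25 ± 0.12 (limma SE, adjusted p = 0.792). Of 7 other pores of related build, the endolysosomal channels Tpcn1 and Tpcn2 had vehicle means of 10.08 and 8.08. Catsper2, a sperm channel pore, had a vehicle mean of 5.14 and differed by -0.37 ± 0.15 (limma SE, adjusted p = 0.792). Tpcn1 stood at 10.06 and 10.10 in vehicle, 9.32 at 10 µM and 9.84 at 20 µM, a difference of -0.50 ± 0.20 (limma adjusted p = 0.792). Over these auxiliary, modulator and related lists, limma called 0 of the 37 measured genes.

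Tissues known for the individual pores were checked by their markers, without any such tissue being expected in a cell line. Above the olfactory receptor line lay 4 of 5 skeletal muscle and 3 of 5 heart markers. So did 1 of 4 retina, 2 of 5 astrocyte and 4 of 4 oligodendrocyte markers. The retina marker Sag also belonged to the 45 genes that set the line of other tissues. Above the line of other tissues lay 2 of 5 skeletal muscle markers (Ckm at 6.83 and Acta1 at 6.42), 1 of 5 heart markers (Tnnt2 at 6.15), 0 of 4 retina markers, 1 of 5 astrocyte markers (Aldh1l1 at 5.96) and 1 of 4 oligodendrocyte markers (Mbp at 7.69). Mean log2 levels over each list follow in the order vehicle 1, vehicle 2, 10 µM and 20 µM. Neuron markers stood at 5.01, 5.01, 5.07 and 5.17, and skeletal muscle markers at 5.77, 5.70, 6.07 and 5.93. Heart markers stood at 5.11, 5.08, 5.31 and 5.19, and retina markers at 5.03, 4.79, 5.21 and 4.83. Astrocyte markers stood at 4.87, 4.94, 4.86 and 4.75, and oligodendrocyte markers at 6.02, 6.02, 5.98 and 6.02. The part of these markers in the pore subunit values was not tested.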

How the data were processed

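Arrays from 4 N9 samples were used. The authors' deposited table holds a log2 value for each probe set and array; the submitters' processing notes name RMA and Affymetrix Expression Console 1.2.1.20. RMA corrects background, equalises array distributions and summarises probes, which hides any change common to most genes. The build behind the probe sets is not given in the sources used here. Of 41345 probe sets, 23521 had exactly 1 symbol in the array annotation, 1814 had several and 16010 were unlisted. The probe set with the highest mean stood for its gene, leaving 22180 genes.

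Nimodipine (2 arrays) was compared with vehicle (2 arrays) by limma 3.58.1 in R 4.3.3 (lmFit, eBayes). Benjamini-Hochberg adjustment ran over all genes, with a threshold of 0.05. The code was tested on simulated data for large changes, which gives no assurance for differences as small as those of the pore subunit genes. The spread within nimodipine includes the difference between doses. Members and lists were chosen with earlier results of these data known. Named besides the members were, of each partner list, the 4 genes highest in vehicle and the 2 with the largest difference, and, for Cacna1d, the 3 nearest profiles, and the 2 highest of each marker list; not all are printed. Aif1 was named after its values were seen. Alternatives covered normalization, probe set choice, a filter on dim genes, eBayes settings, dose as a number, background sets and left-out arrays.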

Additional observations from a re-analysis of the deposited data

How the results depend on the processing

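No pore subunit gene was called under any alternative run, and 4 of them (Cacna1c, Cacna1e, Cacna1g and Cacna1i) had no value with dim genes left out, since their mean lay below the median of all values. For nimodipine against vehicle, the limma count over all genes was 0 except without the 20 µM array or in the contrast of 10 µM with vehicle in the fit of 3 groups, where it was 353. In that fit, 20 µM minus 10 µM gave 70. At an unadjusted p under 0.05 limma with all arrays gave 1191 genes. A fit without 1 dose array leaves 1 array in the nimodipine group. Its spread then comes from the vehicle pair alone, drawn toward that of all genes. The number of pore subunit genes above background went from 6 to 1 with the 99th percentile of olfactory receptor genes, with genes of other tissues, and with keratin-associated or beta-defensin genes (the last 2 added after seeing the data), and was 8 with the 90th percentile. With a fold of 0.5 on the log2 scale the counts over all genes were 2240 at 10 µM and 608 at 20 µM. The vehicle arrays differed from each other by that much in 794 genes, with 1 array set against 1 and not against a mean. At 10 µM 1 pore subunit gene passed. Against vehicle 1 or vehicle 2 alone the 20 µM count was 38 or 37, beside 19 against their mean. Direction turned for small differences: Cacna1e was -0.0030 with equal array medians and -0.027 with cyclic loess; Cacna1s was -0.0055 with cyclic loess; Cacna1c was 0.00091 per µM with dose as a number; Cacna1b and Cacna1c were 0.032 and 0.036 at 20 µM alone, the same values as without the 10 µM array. Over the left-out arrays, Cacna1b ranged from -0.23 to 0.032, Cacna1c from -0.14 to 0.095, Cacna1e from -0.062 to 0.12 and Cacna1i from -0.0025 to 0.15. Cacna1d ranged from -0.62 to -0.30 and Cacna1h from 0.27 to 0.35 over the 2-group alternatives. The groups did not overlap for 4 pore subunit genes with equal array medians (Cacna1s dropping out) and for 5 with cyclic loess (Cacna1a in place of Cacna1s), both added after seeing the data. No paired analysis was possible because only the vehicle arrays carry replicate numbers. The cause of these changes was not tested. Signal close to background limits what can be said of 9 of the 10 genes. Cacna1a, at 7.10, exceeded all 45 genes of other tissues. It lay below the highest olfactory receptor gene (7.85), keratin-associated protein gene (7.17) and beta-defensin gene (7.26), so the limit reaches it too.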
